A study of Mus musculus with 39 samples.

Results

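S phase genes encode the machinery that copies the genome. In G1 the MCM proteins are loaded as an inactive ring helicase at replication origins. At the G1 to S transition Cdc45 and the GINS proteins join the ring, DNA unwinds, and polymerases, their clamp and enzymes that supply deoxynucleotides and histones complete the copy, much of it under control of E2F transcription factors. In the embryonic neocortex these transcripts mark cycling radial glia and intermediate progenitors, and they fade as neurons leave the cell cycle.

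The set examined here holds 40 genes used as markers of S phase, read by symbol from the gene count tables of all libraries with at least 40% uniquely aligned reads. Of the 40, 37 had a mean count of 10 or more over the 36 libraries kept and are described below, among 11472 genes of 53379 that met the same minimum. The other 3 were Fen1, which cuts Okazaki fragment flaps, Ung, which removes uracil from DNA, and Wdr76, with mean counts of 3.94, 7.89 and 9.06. E2f8, Pold3, Blm and Rrm1 lie on chromosome 7.

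Each library held sorted cells of the neocortex of an E13 or E16 mouse embryo (E, embryonic day), strain label CD1 (a mixed C57BL/6J and CD1 background by the study's methods). In every embryo both homologs of chromosome 7 carried MADM (mosaic analysis with double markers) cassettes, and Emx1-Cre drove recombination in the dorsal telencephalic lineage, so no library came from cells free of the cassettes or of Cre. Cells were sorted as red (tdT+), green (GFP+) or yellow (GFP+/tdT+). Red and green cells hold both copies of chromosome 7 from one parent and arise only when recombined chromosomes segregate at a mitosis, whereas yellow cells hold a maternal and a paternal copy and can also arise from recombination without a division. Of 39 libraries, 36 were kept, 5 of each colour from 6 embryos at E13 and 7 of each colour from 7 embryos at E16, each pool holding 200 to 400 cells of a single embryo. At E13 embryo 3 kept no yellow library and embryo 5 kept only its yellow library. The parental direction of red and green is not in the labels. The study's sample table gives red as the paternal disomy in replicates 1 to 3 and green from replicate 4 up.

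Gene counts per library ran from 472924 to 5205788. Of the 37 genes, 5 (Rfc2, Pcna, Slbp, Rrm2 and Nasp) had counts in all 36 libraries. A median of 1 of the 37 had no count in the E13 libraries and a median of 7 in the E16 libraries. The libraries with the most S phase genes at 0 were these. E13 yellow replicate 2 had no count for 18 of the 37 genes, against 1 in each of the other E13 yellow libraries, at 3871672 gene counts. E16 yellow replicate 7, red replicate 6 and red replicate 5 had no count for 24, 17 and 13. E16 green replicate 7 and yellow replicate 1 also had no count for 13. The first 4 named are among libraries that the study did not use, and each comparison is also given without those. Markers of blood and of other cell types that a sort could hold were summed too. Globin and Alas2 transcripts together reached 34968 CPM (counts scaled to a common library size) in an E13 embryo and 2311 CPM in an E16 embryo. The microglial, endothelial, pericyte, interneuron, Cajal-Retzius and oligodendrocyte-lineage lists summed to at most 74.6, 30.8, 40.0, 137, 414 and 172 CPM in any embryo. In single libraries these 6 sums reached 188, 133, 91.0, 142, 541 and 604 CPM. Globin and Alas2 reached 52366 CPM in an E13 red library and 6925 CPM in an E16 red library. Their E13 medians were 13402 CPM in red, 41.3 CPM in green and 1201 CPM in yellow libraries. The part of such cells in the comparisons of libraries was not tested.

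Because many of these genes are E2F targets, their promoters were read first (RefSeq, GRCm38.p6, 250 bases before to 50 after the annotated start). Of the 37 genes, 27 had a promoter in the table, and 6 of these (22.2%) held TTTGGCGC or TTTCGCGC on either strand, against 0.929% of 27025 genes. The share was 20.8% among 48 other replication genes and 4.44% among 45 G2 and mitosis genes. CCAAT, a short box found in many promoters, stood in 77.8% of the 27, in 77.8% of the G2 and mitosis genes and in 41.1% of all genes. TTTGAA, the cell cycle homology region of late cell cycle genes, was in 14.8% of the 27, 71.1% of the G2 and mitosis genes and 20.2% of all. A match of letters is a description, not a site. The 4 promoters below belong to genes that were lower at E16 and hold the E2F letters, which are in capitals. Of the genes with a promoter, 4 of 12 that were lower at E16 (33.3%) and 2 of 15 not called (13.3%) held these letters. The difference was not tested. The lines run 5′ to 3′ on the coding strand of the gene. In Mcm5 (chr8:75109259-75109558, plus strand) and in the upstream block of Mcm6 (chr1:128359656-128359955, minus strand) both versions overlap on opposite strands. Dtl is at chr1:191575495-191575794 on the minus strand and Clspn at chr4:126556730-126557029 on the plus strand.
Mcm5: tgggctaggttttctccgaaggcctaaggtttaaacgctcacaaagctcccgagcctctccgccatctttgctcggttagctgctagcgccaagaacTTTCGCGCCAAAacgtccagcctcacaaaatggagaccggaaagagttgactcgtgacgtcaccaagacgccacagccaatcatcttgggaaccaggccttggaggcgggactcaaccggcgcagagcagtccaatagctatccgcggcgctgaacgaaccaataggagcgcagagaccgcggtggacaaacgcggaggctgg
Mcm6: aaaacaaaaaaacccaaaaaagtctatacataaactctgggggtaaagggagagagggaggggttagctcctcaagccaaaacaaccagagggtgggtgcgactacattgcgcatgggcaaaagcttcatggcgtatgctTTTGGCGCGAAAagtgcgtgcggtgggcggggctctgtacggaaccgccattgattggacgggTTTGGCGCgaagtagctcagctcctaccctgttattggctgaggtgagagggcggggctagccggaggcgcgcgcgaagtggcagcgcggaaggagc
Dtl: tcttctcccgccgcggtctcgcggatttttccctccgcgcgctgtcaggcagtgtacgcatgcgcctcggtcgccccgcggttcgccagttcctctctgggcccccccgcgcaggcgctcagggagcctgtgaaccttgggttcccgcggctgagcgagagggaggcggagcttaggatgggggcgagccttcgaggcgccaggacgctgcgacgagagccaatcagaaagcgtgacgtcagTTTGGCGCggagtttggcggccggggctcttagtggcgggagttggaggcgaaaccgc
Clspn: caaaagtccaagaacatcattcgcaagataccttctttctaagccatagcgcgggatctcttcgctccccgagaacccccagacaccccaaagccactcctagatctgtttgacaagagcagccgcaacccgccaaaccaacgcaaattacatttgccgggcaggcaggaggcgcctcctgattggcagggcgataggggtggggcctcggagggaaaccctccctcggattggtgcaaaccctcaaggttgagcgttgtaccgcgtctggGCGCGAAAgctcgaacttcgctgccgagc
The Mcm5 block starts 153 bases before the start site, the Mcm6 blocks 110 and 47 bases before it, the Dtl match 8 bases before it, and the Clspn match at base 22 after it. Pola1 and Casp8ap2 held 1 match each and did not pass the test of age below.

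The first comparison asked how these genes differ between E13, when cortical progenitors divide and deep-layer neurons form, and E16, when more cells are neurons. Of the 37 S phase genes, 16 fell at E16 and none rose (edgeR quasi-likelihood test on counts summed over the colours of each embryo, Benjamini-Hochberg adjusted p under 0.05 over 13776 genes), where 1.88% of all genes tested fell and 1.92% rose. The median log2 fold change, E16 over E13, was -1.63 over the 37 genes and 0.03 over all genes tested. Of the 37, 36 had a negative fold change, as did 48.5% of all genes tested, and 27 had an unadjusted p under 0.05, as did 19.3%. In bulk samples such as these, fewer cells in S phase and less RNA per cell cannot be told apart. The summed level of the 37 genes was 3221 to 5340 CPM in the 6 E13 embryos (median 3734) and 1158 to 1698 CPM in the 7 E16 embryos (median 1363), a 2.74-fold ratio of medians without overlap.

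**Figure D1:**
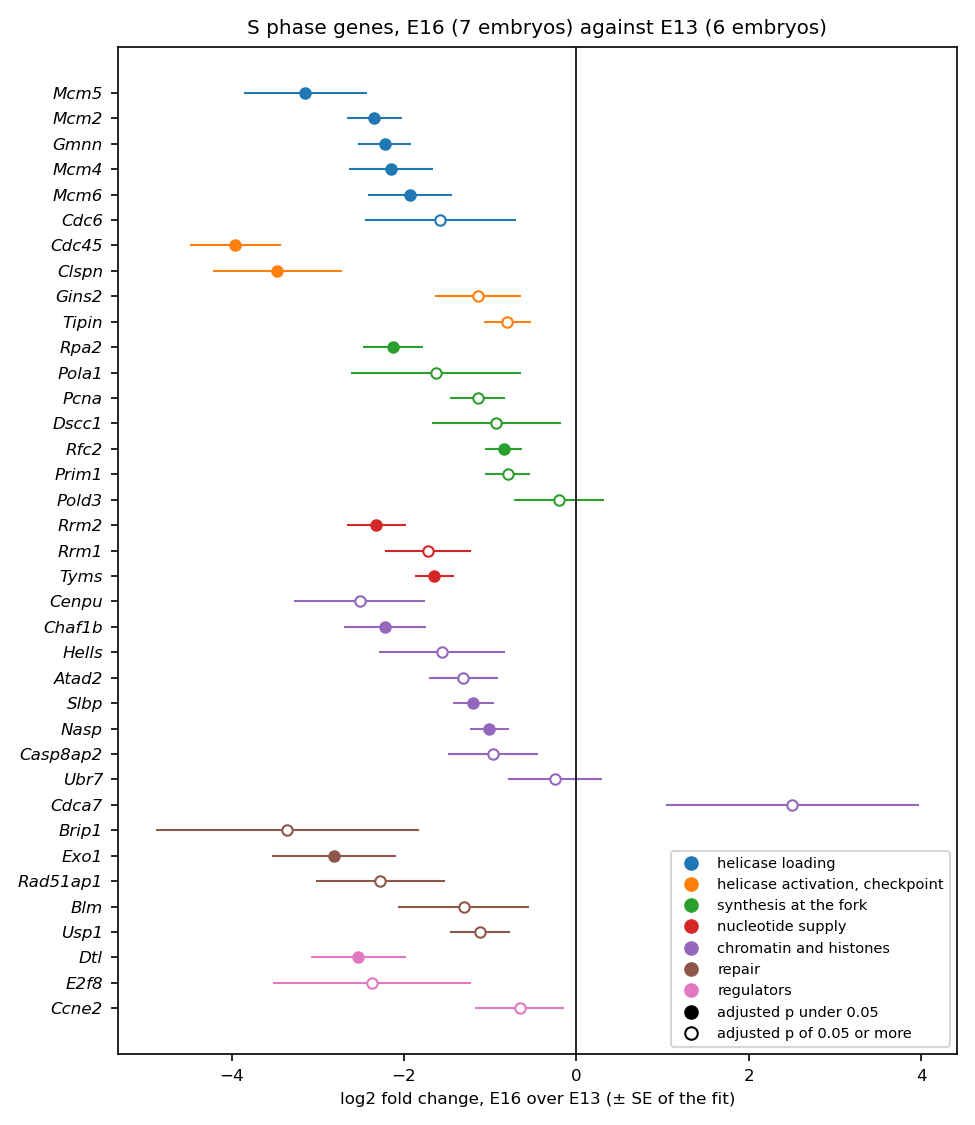
Log2 fold change of each of the 37 S phase genes at E16 relative to E13 (x axis, edgeR fit on embryo sums, bars are the SE), grouped by role and filled where the adjusted p is under 0.05. All points but Cdca7 lie left of 0, and the 16 filled points run from -3.96 (Cdc45) to -0.84 (Rfc2).

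Among genes of helicase loading, 5 of 6 fell, with a median log2 fold change of -2.19. Mcm2 (ENSMUSG00000002870.8, chromosome 6, 88883474 to 88898780), a subunit of the MCM ring, was at 190 to 524 CPM in the E13 embryos (median 380) and at 29.4 to 127 CPM at E16 (median 73.2), so that every E16 embryo was below every E13 embryo. Its log2 fold change was -2.35 ± 0.32 (SE, adjusted p = 0.00052). Mcm5 (ENSMUSG00000005410.6, chromosome 8, 75109569 to 75128439), another ring subunit, whose promoter is printed above, went from 63.6 to 361 CPM (median 214) to 1.03 to 48.5 CPM (median 24.5), also without overlap. The fit gave a log2 fold change of -3.14 ± 0.72 (adjusted p = 0.023). Mcm4 and Mcm6 had log2 fold changes of -2.15 and -1.93 (adjusted p = 0.023 and 0.038), with some embryos of the ages overlapping. The overlap lay in E13 embryo 5, a yellow library alone, at 10.2 CPM for Mcm4 and 34.9 CPM for Mcm6. The other E13 embryos were at 57.6 CPM or more for Mcm4 and 109 CPM or more for Mcm6. The E16 embryos reached 21.6 and 72.9 CPM. Without E13 replicate 4, Mcm4 and Mcm5 were not called (adjusted p = 0.0525 and 0.0533). Gmnn encodes geminin, which restrains the loading factor Cdt1 after S phase begins. It was at 115 to 213 CPM at E13 (median 181) and 19.9 to 59.0 CPM at E16 (median 34.4), without overlap. Geminin transcripts changed by a log2 fold of -2.22 ± 0.31 (adjusted p = 0.00056). Cdc6, which recruits the MCM ring to origins, was not called (-1.58 ± 0.87, adjusted p = 0.35).

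Helicase activation and fork protection held the steepest declines among genes past the threshold. Cdc45 (ENSMUSG00000000028.14, chromosome 16, 18780447 to 18811987), which turns the MCM ring into an active helicase, was at 28.01 to 78.0 CPM at E13 (median 50.1) and 0.462 to 4.98 CPM at E16 (median 3.95). The groups did not overlap, and the log2 fold change was -3.96 ± 0.53 (adjusted p = 0.0005). Clspn encodes claspin, an adaptor of the replication checkpoint. It ranged from 20.7 to 97.5 CPM at E13 (median 29.6) and from 0 to 9.58 CPM at E16 (median 3.24), with 1 E16 embryo at 0 counts and no overlap. Across ages the log2 fold change was -3.47 ± 0.75 (adjusted p = 0.017). Gins2, a subunit of GINS, and Tipin, a fork protection factor, had log2 fold changes of -1.14 and -0.80 and did not pass the test (adjusted p = 0.22 and 0.11).

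Of 7 genes that act at the fork 2 fell, and the median log2 fold change was -0.93. Rpa2, a subunit of the protein that coats single-stranded DNA, was at 83.1 to 309 CPM at E13 (median 196) and 15.7 to 74.6 CPM at E16 (median 45.01), without overlap. For Rpa2 the fit gave a log2 fold change of -2.12 ± 0.35 (adjusted p = 0.0024). Rfc2, a subunit of the clamp loader, fell by 0.84 on the log2 scale (adjusted p = 0.039). Pcna, the sliding clamp, was at 105 to 210 CPM at E13 (median 139) and at 26.6 to 101 CPM at E16 (median 74.6). Its groups did not overlap, yet the log2 fold change of -1.15 ± 0.32 missed the threshold (adjusted p = 0.054). The polymerase genes Pola1, Prim1 and Pold3 were at -1.63 ± 0.99, -0.80 ± 0.26 and -0.20 ± 0.52 and were not called. Dscc1, part of an alternative clamp loader, was at -0.93 ± 0.75.

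Of the 3 genes of nucleotide supply 2 fell. Tyms (ENSMUSG00000025747.12), thymidylate synthase, was at 219 to 425 CPM at E13 (median 278) and 64.3 to 145 CPM at E16 (median 89.4). For Tyms the fit gave a log2 fold change of -1.65 ± 0.23 (adjusted p = 0.00059). Rrm2 (ENSMUSG00000020649.11), the S phase-limited subunit of ribonucleotide reductase, was at 143 to 307 CPM (median 199) and 19.4 to 74.1 CPM (median 50.3). For Rrm2 the fit gave a log2 fold change of -2.32 ± 0.34 (adjusted p = 0.001), and neither gene's ages overlapped. The large reductase subunit Rrm1 was at -1.72 ± 0.50 and missed the threshold (adjusted p = 0.065).

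Of 9 chromatin and histone genes 3 fell, with a median log2 fold change of -1.20. Slbp, which binds the stem-loop of replication-dependent histone mRNAs, was at 145 to 220 CPM at E13 (median 201) and 52.8 to 143 CPM at E16 (median 69.1), and its highest E16 embryo lay just under its lowest E13 embryo. For Slbp the fit gave a log2 fold change of -1.20 ± 0.24 (adjusted p = 0.01). Chaf1b, a subunit of the chromatin assembly factor CAF-1, was at 28.5 to 260 CPM (median 75.2) and 10.8 to 40.0 CPM (median 20.8), with overlap of the ages. For Chaf1b the fit gave a log2 fold change of -2.22 ± 0.47 (adjusted p = 0.015). Nasp, a histone chaperone, fell by 1.01 on the log2 scale (adjusted p = 0.021). The methylation-linked remodeller Hells, the ATPase Atad2 and the centromere gene Cenpu were at -1.56, -1.31 and -2.51 without passing. Casp8ap2 was at -0.97 and Ubr7, a ubiquitin ligase, at -0.25. Cdca7, a partner of Hells, was the single positive value (2.51 ± 1.47, adjusted p = 0.38). It was at 1.32 to 4.93 CPM at E13 and at 0 to 1.22 CPM in 6 E16 embryos, but at 133 CPM in E16 embryo 7, where the yellow library was at 305 CPM, the green at 2.91 CPM and the red at 0. The fitted values without each embryo in turn ran from -2.27 to 2.73.

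Of the 5 repair genes 1 fell. Exo1, an exonuclease of mismatch repair, was at 16.6 to 36.5 CPM at E13 and 0.608 to 11.1 CPM at E16, with a log2 fold change of -2.81 ± 0.72 (adjusted p = 0.039). Exo1, Mcm6 and Rfc2 were each called in only 4 of 13 fits that left out an embryo, with adjusted p of up to 0.079, 0.098 and 0.087. Rad51ap1, a recombination factor, did not overlap between ages either but was not called (-2.27 ± 0.75, adjusted p = 0.096). The helicases Blm and Brip1 and the deubiquitinase Usp1 were at -1.31, -3.35 and -1.12 and did not pass. Of the 3 regulators, Dtl, which directs Cdt1 to degradation during S phase, was at 29.3 to 103 CPM at E13 (median 56.4) and 0.441 to 16.5 CPM at E16 (median 11.3), without overlap. For Dtl the fit gave a log2 fold change of -2.53 ± 0.55 (adjusted p = 0.018). Ccne2, cyclin E2, was at 8.92 to 58.1 CPM (median 19.3) and 6.34 to 25.9 CPM (median 15.2), and its ages overlapped broadly (-0.66 ± 0.52, adjusted p = 0.54). E2f8, a repressor in the E2F family, was at -2.37 ± 1.15 (adjusted p = 0.27).

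**Figure D2:**
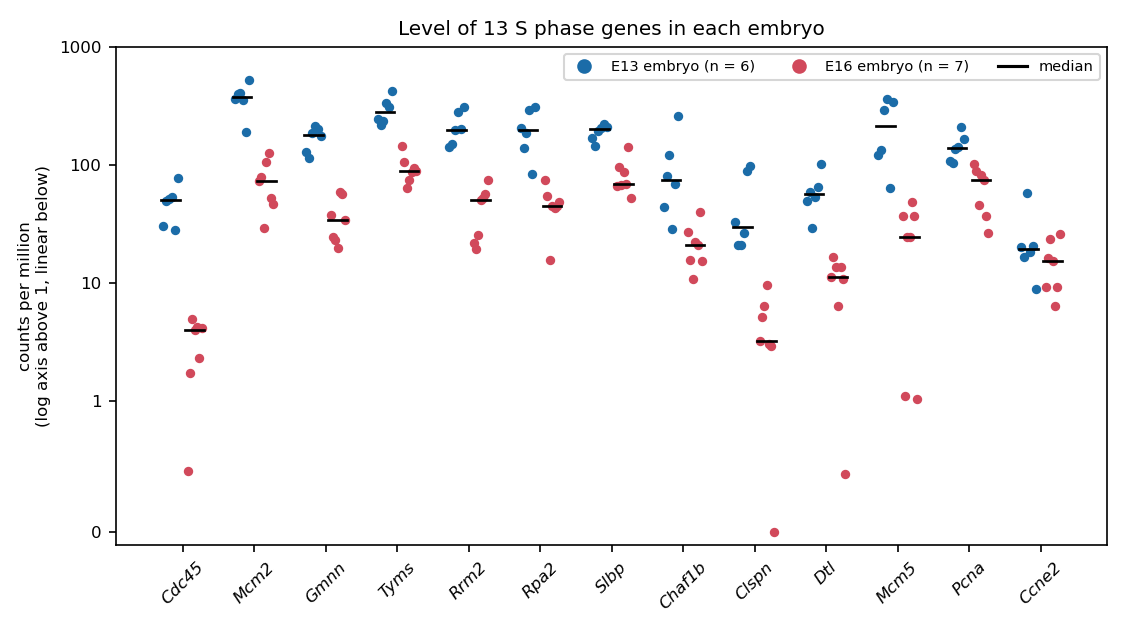
Level of 13 S phase genes in each embryo in CPM (y axis, logarithmic above 1 and linear below), with E13 in blue, E16 in red and medians as lines. Mcm2, Gmnn, Tyms, Rrm2, Cdc45 and Pcna show no overlap of the ages, and Ccne2 overlaps.

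In all, 14 of the 37 genes had every E16 embryo below every E13 embryo, 12 of them past the threshold, where 1.46% of all genes tested did so, and none had every E16 embryo above, where 1.48% did. Per kilobase of exon, median levels at E13 were highest for Gmnn (124 CPM per kilobase) and Tipin (116), followed by Rrm2 (71.9) and Rpa2 (65.6), while Mcm2 stood at 54.6, Cdc45 at 14.3, Clspn at 4.11 and E2f8 at 1.37.

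Other lists of cell cycle genes were read in the same fit. Of 53 other replication genes 13 fell and none rose (median log2 fold change -1.53). Those with the smallest p were the cyclin gene Ccna2 (-2.58), the histone chaperone gene Asf1b (-3.92) and the MCM subunit gene Mcm3 (-2.82), with adjusted p of 0.0013, 0.003 and 0.0033. Of 52 G2 and mitosis genes 17 fell and 1 rose (median -1.63). Cenpa, the centromeric histone, Tacc3, a spindle protein, and Cdca8, a subunit of the chromosomal passenger complex, were at -1.77, -2.44 and -2.12 (adjusted p = 0.00032, 0.00051 and 0.00064), and Jpt1 was at 0.63 (adjusted p = 0.03).

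Markers of cell type moved with age as well. Of 8 radial glia markers 5 fell (Nes, Vim, Pax6, Hes1 and Sox2) and none rose, and their summed level was 1591 to 2362 CPM at E13 and 843 to 2838 CPM at E16. Of 5 intermediate progenitor markers 1 fell (Gadd45g), with sums of 907 to 1430 and 305 to 815 CPM. Of 7 projection neuron markers 4 rose (Mapt, Neurod6, Dcx and Tubb3), with sums of 4158 to 6853 and 6810 to 9365 CPM. The part of these markers in the difference of the S phase genes was not tested.

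In yellow libraries alone none of 36 genes tested was called (0.0527% of all genes tested were lower; 5 of the 36 had an unadjusted p under 0.05), in red libraries alone 1 was lower (0.152% of all genes) and in green libraries alone 9 were lower (0.644%). The direction was kept: 34, 36 and 35 of the 36 had negative fold changes, with medians of -1.33, -1.60 and -1.96. Without the libraries the study did not use, 20 of the 37 fell, the 16 among them, and Cdca7 was negative too. Replicates 1 to 3 alone gave 5 lower (0.492% of all genes) and replicates 4 and up 2 (0.0666%). DESeq2 gave 24 lower (4.75% of all genes) and limma-voom on unsummed libraries 22 (6.55%).

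The second comparison set singly coloured (red and green) against yellow cells within embryos. It bears on S phase because red and green cells come only from a division. No S phase gene passed the threshold at E13 (edgeR quasi-likelihood test with the embryo as a block, 11786 genes tested, 0% higher and 0.00848% lower). The fitted log2 fold changes, singly coloured over yellow, were nevertheless positive for 35 of 37 genes, as against 46.2% of all genes tested, with a median of 1.16 against -0.10. Of the 37, 8 had an unadjusted p under 0.05, all higher, as did 6.86% of all genes in either direction and 2.37% in that direction. DESeq2 called 7 of the 37 higher (Mcm2, Rrm1, Mcm5, Tipin, Brip1, Rrm2 and Cdc45), where it called 1.65% of all genes higher and 3.09% lower, and edgeR without the embryo block called Mcm2 alone (adjusted p = 0.033). Among these, Brip1 had no count in 4 of the 5 yellow libraries. The other replication genes and the G2 and mitosis genes had medians of 1.15 and 1.08.

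At E13 Mcm2 was at 439, 475, 385, 330 and 654 CPM in red, at 530, 548, 492, 639 and 690 CPM in green, and at 193, 166, 240, 196 and 275 CPM in yellow libraries. Here and for Cdc45 below, red and green values follow replicates 1, 2, 3, 4 and 6. Yellow values follow replicates 1, 2, 4, 5 and 6, so replicates 3 and 5 have no pair. All 10 singly coloured libraries were above all 5 yellow ones, also without yellow replicate 2, and within embryos the difference was positive in 4 of 4. In the edgeR fit the log2 fold change was 1.29 ± 0.25 (unadjusted p = 0.00022, adjusted p = 0.22). Cdc45 was the only other member without overlap of the groups, where 0.297% of all genes were above yellow and 0.382% below it in this way. It was at 41.3, 104, 37.4, 55.9 and 145 CPM in red, 43.1, 53.1, 98.7, 149 and 77.3 CPM in green, and 12.5, 0, 1.21, 28.9 and 14.1 CPM in yellow. Rrm2 ranged over 142 to 358 CPM in red, 181 to 531 CPM in green and 57.6 to 244 CPM in yellow (1.40 ± 0.37, adjusted p = 0.45). Mcm5 ranged over 120 to 478, 151 to 628 and 4.64 to 140 CPM (2.12 ± 0.60, adjusted p = 0.47). The 2 negative members were Rad51ap1 (-0.31 ± 1.15) and E2f8 (-0.02 ± 2.20), each within its error. Within embryos, Rad51ap1 was lower in 4 of 4, the 1 member to be so, where 10.3% of 11472 genes were. Another 12 members were higher in 4 of 4, where 6.76% of those genes were.

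**Figure D3:**
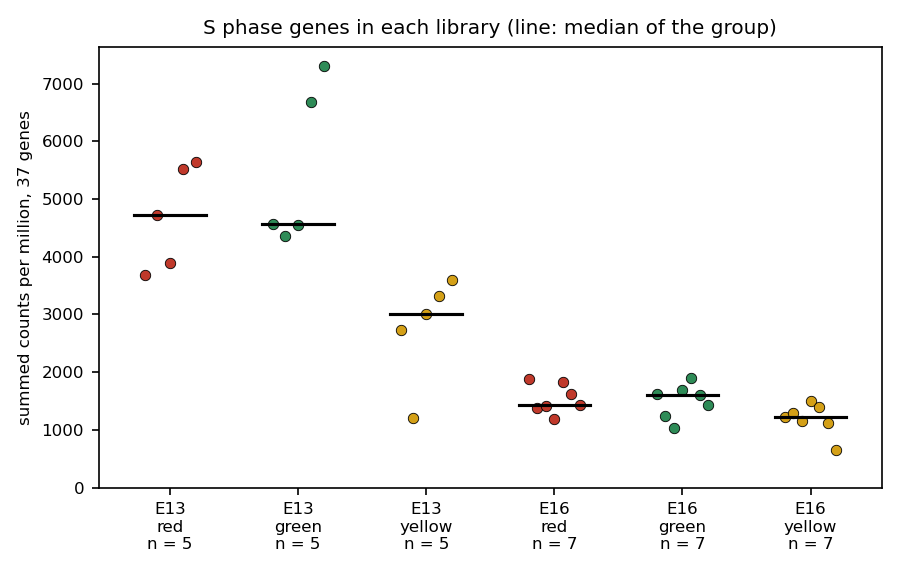
Summed CPM of the 37 S phase genes in each library (points) by age and colour, with the median of each group as a line. At E13 the 10 red and green libraries lie at 3691 CPM or more and the 5 yellow libraries at 3594 CPM or less, and all E16 libraries lie between 649.6 and 1898 CPM.

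Summed over the 37 genes, red libraries at E13 were at 3691 to 5647 CPM and green at 4360 to 7302 CPM, and yellow at 1211 to 3594 CPM. Radial glia markers differed alongside, with sums of 1823 to 2468 CPM in red, 1853 to 3167 CPM in green and 706 to 1681 CPM in yellow. Projection neuron markers were in the opposite order, at 3064 to 5031, 3243 to 4669 and 5815 to 7063 CPM. Their part in the difference of the S phase genes was not tested. Without the libraries the study did not use, the median fold change of the 37 fell to 0.51 at E13, with 33 of 37 positive, so its size rested on yellow replicate 2. Leaving out that embryo gave 0.51 as well.

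At E16 none of 34 genes tested was called or had an unadjusted p under 0.05 (10794 genes tested, 0% called in either direction, 2.38% with an unadjusted p under 0.05), and DESeq2 called none (0.222% of all genes higher and 0.584% lower). The median was 0.72 (0.002 over all genes tested), with 27 of 34 positive, as against 50.2%. It was 0.41 without E16 replicate 7, 0.47 without replicate 1, and 0.66 (25 of 33 positive, none called) without the libraries the study did not use. Pold3, a polymerase delta subunit, was the member with the smallest p (2.29 ± 1.24, adjusted p = 1). It was also the only one higher in all 7 embryos, where 0.523% of all genes were. Gmnn and Prim1 were at 1.69 ± 1.13 and 1.02 ± 0.70. Rrm2, Chaf1b and Cdca7 were at -0.78 ± 0.63, -1.11 ± 1.35 and -0.66 ± 1.61. Mcm2 at E16 was at 0 to 234 CPM in red, 19.4 to 104 CPM in green and 0 to 95.5 CPM in yellow, and the singly coloured mean was higher in 6 of 7 embryos. Rrm2 was at 10.9 to 49.4, 15.5 to 76.5 and 6.77 to 127 CPM, higher in 3 of 7.

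With both ages in the fit, no member was called (11472 genes tested, 0.00872% higher and 0% lower), and DESeq2 called none (0.532% and 1.13%). Of the 37, 34 were positive, against 47.7% of all genes, 4 had an unadjusted p under 0.05, against 4.99%, and the median was 0.89 against -0.03. Without the libraries the study did not use it was 0.63, with 33 of 36 positive and none called. Mcm2, Rrm1 and Pold3 were at 1.29 ± 0.51, 1.57 ± 0.66 and 2.04 ± 0.93 (adjusted p = 0.90, 0.99 and 0.99), and Chaf1b, Rad51ap1 and Rrm2 at -0.28 ± 1.00, -0.22 ± 1.01 and -0.03 ± 0.41. The single gene higher in singly coloured cells among all 11472 was Vim, a radial glia marker (1.27 ± 0.21, adjusted p = 0.013). Within embryos, the median difference over the 37 genes was above 0 in 10 of 11, from 0.12 to 5.06 log2 CPM, and was -0.51 in E16 embryo 5. The difference between the ages was not past the threshold for any member (interaction term, 0% called in either direction, median -0.40), and 2 of 37 had an unadjusted p under 0.05, against 4.14% of all genes. DESeq2 called Rrm2 alone (1.26% of all genes higher and 0.488% lower). Without the libraries the study did not use the median interaction was -0.0066, with 18 of 36 positive. Rrm2 had an interaction of -2.17 ± 0.75 (edgeR adjusted p = 1), Brip1 of -9.02 ± 2.98 and Cdc45 of -4.13 ± 2.54, and E2f8, Hells and Pold3 of 2.29, 1.33 and 0.81. Brip1 had no count in 23 of the 36 libraries, so the size of its fold change is not a measured level.

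**Figure D4:**
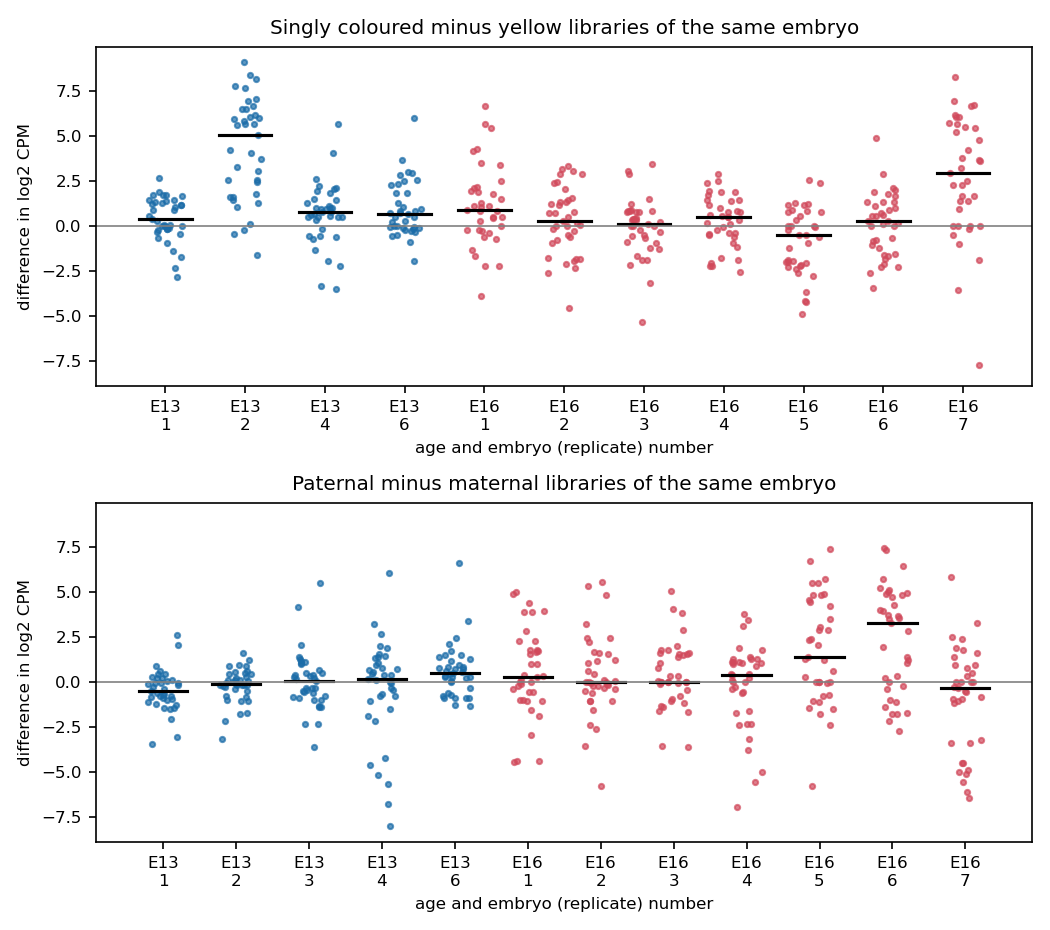
Difference in log2 CPM (y axis) of each of the 37 S phase genes between libraries of the same embryo (points, E13 blue, E16 red, median as a line), singly coloured minus yellow in 11 embryos above and paternal minus maternal disomy in 12 embryos below. The medians above are positive in 10 of 11 embryos and largest in E13 embryo 2 (5.06) and E16 embryo 7 (2.93); the medians below range from -0.52 to 3.28.

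The third comparison, paternal against maternal disomy, asked whether the parental origin of chromosome 7 changes the cycle of these cells, since Cdkn1c, an inhibitor of cyclin-dependent kinases, is expressed from the maternal copy. The direction taken from the sample table was checked on imprinted genes. The paternally expressed Kcnq1ot1, Ndn, Snrpn and Inpp5f were higher in the library given as paternal in 12 of 12 embryos, and the maternally expressed Cdkn1c was lower there in 12 of 12. Peg3 and Mkrn3, also paternally expressed, were higher in 11 of 12 and Magel2 in 10. Usp29, paternally expressed too, was lower in 1 of 12, level in at least 1 E13 embryo and higher in the rest. Of the other maternally expressed genes, Ube3a was lower in 10 of 12, and H19 was lower in 6 and higher in 4.

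At E13 no S phase gene was called (11786 genes tested, 0% in either direction), none had an unadjusted p under 0.05 (2.24% of all genes did), DESeq2 called none (0.73% higher and 0.984% lower), and 21 of 37 were positive, against 47.3%, with a median log2 fold change, paternal over maternal, of 0.05. The median was -0.09 without E13 replicate 4, -0.01 without replicate 6, and 0.04 (23 of 37 positive, none called) without the libraries the study did not use. Hells, Rfc2 and Nasp were at 0.99 ± 0.86, 0.46 ± 0.50 and 0.17 ± 0.27, and Brip1, Casp8ap2 and Rad51ap1 at -3.12 ± 1.74, -1.46 ± 1.38 and -1.28 ± 1.36 (adjusted p = 1 for each). Between paternal and maternal libraries of the same embryo, Mcm2 differed by 0.04 ± 0.54 log2 CPM (SD, n = 5), Pcna by 0.02 ± 0.46, Rrm2 by 0.06 ± 0.73, Tyms by -0.26 ± 0.67 and Mcm5 by 0.01 ± 0.90. Ccne2 differed by -0.97 ± 2.11.

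At E16 again none of 34 was called (10794 genes tested, 0.0278% higher and 0% lower), 18 of 34 were positive (54.6% of all genes) and the median was 0.40. The spread between embryos was wide: Mcm2 differed by 1.18 ± 2.95 log2 CPM (SD, n = 7), Pcna by 0.17 ± 1.44, Rrm2 by -0.23 ± 0.83 and Tyms by 0.70 ± 1.75. Cdc6, Exo1 and Rpa2 had unadjusted p of 0.0052, 0.043 and 0.048 (8.29 ± 2.48, 5.88 ± 2.71 and 2.63 ± 1.25, adjusted p = 1 for each), and 2.31% of all genes passed the unadjusted level. Cdc6 had counts in only some of these libraries. It was at 0 in all 7 maternal libraries and in 2 paternal ones, and at 1.29 to 34.9 CPM in the other 5 paternal libraries. The highest of these was green replicate 7. Exo1 was at 0 in every maternal library but red replicate 7 (13.5 CPM), and in paternal red replicate 3 and green replicate 7. Rpa2 was at 0 in maternal red replicates 5 and 6, which the study did not use. DESeq2 called Cdc6 alone among the 34, where it called 0.334% of all genes higher and 0.232% lower. Hells, Mcm6 and Nasp were at -1.99 ± 1.86, -0.93 ± 1.04 and -0.25 ± 0.35. Without the libraries the study did not use the median was -0.02, with 16 of 33 positive. Replicates 5 and 6 decided it, since leaving out either of these embryos gave medians of -0.02 and -0.01.

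With both ages together no S phase gene was called (0.061% higher and 0.00872% lower among 11472) or had an unadjusted p under 0.05 (2.33% of all genes did), and DESeq2 called none (0.488% and 0.279%). The median was 0.22 with 23 of 37 positive, against 51.2%. It was 0.08 without E16 replicate 5 and 0.083 without replicate 6, and 0.095 (19 of 36 positive, none called) without the libraries the study did not use. Cdc6, Rpa2 and E2f8 were at 3.43 ± 1.69, 1.35 ± 0.81 and 1.94 ± 1.44, and Brip1, Casp8ap2 and Mcm6 at -1.47 ± 1.60, -0.83 ± 1.04 and -0.41 ± 0.58 (adjusted p = 1 for each). No member had the same sign in all 12 embryos, where 0.0523% of all genes were higher in all 12 and 0.00872% lower. The interaction with age was past the threshold for none (0% in either direction, median 0.20), 3 of 37 had an unadjusted p under 0.05, against 2.54% of all genes, and DESeq2 called none (0.915% and 0.628%). Without the libraries the study did not use the median was 0.02. Cdc6, Brip1 and Exo1 were at 8.53 ± 2.79, 6.62 ± 2.53 and 6.53 ± 2.96, and Hells, Cdc45 and Nasp at -3.01 ± 1.99, -2.37 ± 2.46 and -0.44 ± 0.45. Cdc6, Brip1 and Exo1 had no count in 15, 23 and 12 of the 36 libraries. Of the 4 members on chromosome 7 itself, paternal minus maternal differences over the 12 embryos were 0.83 ± 2.03 for E2f8, 0.53 ± 2.80 for Pold3, 0.61 ± 3.53 for Blm and -0.33 ± 1.56 for Rrm1 (SD, log2 CPM).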

How the data were processed

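Gene counts came from Smart-Seq2 libraries of sorted neocortical cells. The authors aligned reads with STAR 2.5.0c to GRCm38 with Gencode M16 genes, kept uniquely aligned reads and combined technical replicates with SAMtools 1.8, per the study's methods and the submitters' processing notes, which also name bedtools 2.26.0. The deposited values are raw counts per gene, without strand or molecular identifiers, so detection limits cover counting error only. The unstranded count column was used.

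Libraries with at least 40% uniquely aligned reads were kept (36 of 39, 50.47 to 65.98% unique). A count of 3, taken as the detection floor, was 0.576 to 6.34 CPM. Genes needed a mean count of 10. Tests used edgeR 4.0.16 in R 4.3.3 (TMM, quasi-likelihood, Benjamini-Hochberg over all genes tested, threshold 0.05), on counts summed per embryo for age and with the embryo as a block otherwise. DESeq2 1.42.0 and limma 3.58.1 were alternatives, and Python 3.11.15 with pandas 2.3.3 made the summaries. Fits were tested on simulated data. In every comparison simulated, that of age and those of both ages included, most changed genes were missed. A gene not called is therefore not shown to be unchanged. Differences in log2 CPM used a prior count of 2.

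Libraries with the same age and replicate number were taken to come from 1 embryo. The labels give only the replicate number, and the study's methods name single individuals as the replicates. Deviations from group means correlated weakly within embryos, at 0.0439 on average at E13 and 0.0294 at E16. Between libraries of different embryos the averages were -0.00919 and -0.00357. Single pairs within E16 embryos ran from -0.0399 to 0.0835. No libraries were identical. Members of the S phase list, the other lists and the tests were chosen with earlier results of these data known. Described by rule were, for age, the 10 called members with the smallest p, and, for the other comparisons, the 3 members with the smallest p in each direction; other members are given by role.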

Additional observations from a re-analysis of the deposited data

Results flagged for a closer look

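Values far from the rest of their group were sought in 38 groups of 4 to 7 embryos or libraries, and 3 were found; chance flags about 1 in 20 groups. Ccne2, the cyclin E2 gene, was at 58.1 CPM in E13 embryo 3, where the other E13 embryos were at 8.92 to 20.4 CPM. The median difference of the 37 S phase genes between singly coloured and yellow libraries was 5.06 log2 CPM in E13 embryo 2, where the other 3 E13 embryos were at 0.38 to 0.76. In E16 embryo 7 it was 2.93, where the other 6 E16 embryos were at -0.51 to 0.89. Over all genes the median difference was 0.70 in E13 embryo 2 and 1.02 in E16 embryo 7. The yellow libraries of both embryos had no count for 18 and 24 of the 37 genes, and the part of this in the difference was not tested.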

How the results depend on the processing

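Of 135 recomputed counts of S phase genes called, 126 stayed within 1.5 times the main count. In every comparison but that of age the main count was 0. A count that stayed at 0 there says little, since those main fits called at most 0.061% of all genes in either direction. The share of 126 is therefore not a measure of how stable the calls are. For age, the main count was 16 genes lower at E16. It was 0 in yellow, 1 in red and 9 in green libraries alone. Replicates 1 to 3 gave 5, and replicates 4 and up gave 2. Of the 16 main genes, red libraries held 1, green 8, replicates 1 to 3 held 4, and replicates 4 and up held 2. Each of these fits had fewer libraries, and the cause was not tested. DESeq2 gave 24 and the study's own set of libraries 20, each with all 16 among them. Limma-voom gave 22, which held 14 of the 16. With all 39 libraries, and without the filter on low counts, 14 of the 16 were called as well. In embryos with all 3 colours kept, 15 of the 16 were called. Leaving out each embryo in turn gave 11 (without E13 replicate 4) to 20 (without E16 replicate 7), and 11 genes were called in all 13 such fits. DESeq2 called 7 genes between singly coloured and yellow cells at E13, 1 between disomies at E16 and 1 for the difference between ages in singly coloured against yellow cells; the cause was not tested. Leaving out each embryo gave 0 calls in every fit of singly coloured against yellow cells and of disomy. Without the replicate block, 1 gene was called for singly coloured cells at E13, no other call changed, and Brip1 between disomies at both ages was at 0.84.

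Of 1026 values for single genes and other results, 950 kept their direction and side of the threshold, 40 lost the call, 6 gained it, 1 moved and 29 reversed, all 29 in genes that had not passed the threshold. Log2 fold changes that reversed were, for singly coloured over yellow cells at E13, E2f8 (0.039 with DESeq2 and with RLE factors, 0.57 for red alone, -0.73 to 1.19 leaving out each embryo) and Rad51ap1 (0.13 in the study's set, 0.43 for red alone, -0.76 to 0.098 leaving out each embryo). At E16 Cdca7 was at 0.91 for green alone and at -2.35 to 0.45 leaving out each embryo. At both ages Rrm2 was at 0.083 with all 39 libraries, 0.053 in the study's set, 0.21 for green alone and -0.23 to 0.26 leaving out each embryo. Chaf1b was at 0.11 for red alone and -0.56 to 0.092 leaving out each embryo, and Rad51ap1 at 0.40 and -0.47 to 0.20. Between disomies at E13, Rfc2 and Nasp were at -0.28 and -0.44 with all 39 libraries, and Nasp at -0.012 to 0.38 leaving out each embryo. At both ages Mcm6 was at -0.60 to 0.0031 leaving out each embryo. The differences between ages were -0.26 for Hells (singly coloured cells, the study's set) and 0.20 for Nasp (disomy, all 39 libraries). Leaving out each embryo was not run for the differences between ages. At E16 all libraries passed the minimum, so all 39 libraries gave the main set.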
